A study of Arabidopsis thaliana with 12 samples.

Results

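The cysteine-rich receptor-like kinases of Arabidopsis thaliana, CRK1 to CRK42 without CRK35, made up 41 of the 33602 genes in the deposited tables. The genes were chosen by family name and locus identifier, and no threshold on expression set which genes belong. Of the 41 genes, 20 stand in a tandem block on chromosome 4 that runs from CRK5 (AT4G23130) to CRK24 (AT4G23320), and 21 lie elsewhere. The family itself was selected on measured values, since its fold changes with stress and between genotypes in these libraries had been seen beforehand. Its counts and folds are therefore given as a description, with the whole set of tested genes beside them.

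A CRK is a membrane-spanning receptor of the plasma membrane whose extracellular side carries cysteine-rich DUF26 modules and whose cytoplasmic side is a serine/threonine protein kinase. Members of the family are known in Arabidopsis for roles in pathogen defense, salicylic acid responses, cell death and responses to reactive oxygen species made by membrane NADPH oxidases, and a few also act in abscisic acid and osmotic stress responses. Most sit on chromosome 4, where gene duplication has left rows of similar neighbours.

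RNA sequencing of poly-A RNA was done on whole seedlings of wild type Col-0 (WT) and of 1 stable transgenic line, 35S:HIN1, in which the 35S promoter drives ectopic expression of AT3G11290 (HIN1). The 35S promoter is active in most plant tissues, so the line is a model of broad overexpression and not of a change in the gene's own domain. Seedlings grew for 7 days on control agar and were then moved for 96 h to plates at -0.25 MPa (control) or to plates whose agar held polyethylene glycol and stood at -0.7 MPa (low water potential, here also called stress). Each of the 4 groups had 3 libraries, which the labels call independent experiments, and the WT libraries also serve another series.

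Gene-assigned reads ran from 57996104 to 68555138 per library, and 22924 genes passed the filter on low counts, among them 38 of the 41 CRK genes. HIN1 itself stood at 12.7, 11.8 and 11.8 RPKM (reads per kilobase of gene, scaled to library size) in WT control and at 13.3, 13.6 and 12.5 in WT stress. It stood at 139, 168 and 138 RPKM in HIN1 control and at 176, 195 and 211 in HIN1 stress, in the direction the labels give. Markers of both roots and green tissue were present in every library: the summed RPKM of 10 root genes lay between 1582 and 2219, and that of 11 light-harvesting and Rubisco genes between 28287 and 41572, with no marker of either list at 0. The 4 libraries numbered 3 stood apart from the other 8, with 0.408% to 0.75% of their reads in chloroplast genes against 0.141% to 0.263%, and 1.84% to 2.6% of reads placed at more than 1 site against 1.33% to 1.58%. Their part in the results was not tested beyond the values without them. In RNA from whole seedlings, fewer cells of a type and less RNA per cell cannot be told apart.

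The promoters of 2 pairs of neighbours are shown first. Each pair holds CRK30 or CRK12, the 2 members that fell the most at low water potential in WT. Beside them stand their neighbours CRK31 and CRK11, which also fell there (log2 fold change -2.56 and -0.63). Each sequence is the 300 bases before the annotated gene start in RefSeq's TAIR10.1 genome, written 5′ to 3′ on the gene's strand. Capitals mark the W-box core, TTGAC or its reverse complement GTCAA, the letters that WRKY transcription factors are known to bind. The windows are chr4:6963221-6963520 (plus strand) for CRK30, chr4:6967409-6967708 (plus strand) for CRK31, chr4:12143859-12144158 (minus strand) for CRK11 and chr4:12148042-12148341 (minus strand) for CRK12.
CRK30: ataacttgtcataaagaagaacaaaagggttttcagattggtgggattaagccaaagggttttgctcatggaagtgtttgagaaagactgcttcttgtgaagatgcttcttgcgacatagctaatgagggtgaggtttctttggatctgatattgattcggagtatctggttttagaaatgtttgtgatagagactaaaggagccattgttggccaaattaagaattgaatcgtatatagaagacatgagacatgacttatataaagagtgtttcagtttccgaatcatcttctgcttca
CRK31: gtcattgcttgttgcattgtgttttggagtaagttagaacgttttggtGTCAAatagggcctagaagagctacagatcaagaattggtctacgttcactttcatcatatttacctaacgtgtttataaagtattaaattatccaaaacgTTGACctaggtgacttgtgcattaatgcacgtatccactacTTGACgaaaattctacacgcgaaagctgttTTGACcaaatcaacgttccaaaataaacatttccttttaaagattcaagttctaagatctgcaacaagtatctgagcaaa
CRK11: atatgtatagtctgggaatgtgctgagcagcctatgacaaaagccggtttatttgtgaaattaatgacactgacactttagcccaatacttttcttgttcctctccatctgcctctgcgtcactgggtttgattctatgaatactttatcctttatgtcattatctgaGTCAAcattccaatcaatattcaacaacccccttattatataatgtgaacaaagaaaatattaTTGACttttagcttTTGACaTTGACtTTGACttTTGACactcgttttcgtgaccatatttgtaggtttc
CRK12: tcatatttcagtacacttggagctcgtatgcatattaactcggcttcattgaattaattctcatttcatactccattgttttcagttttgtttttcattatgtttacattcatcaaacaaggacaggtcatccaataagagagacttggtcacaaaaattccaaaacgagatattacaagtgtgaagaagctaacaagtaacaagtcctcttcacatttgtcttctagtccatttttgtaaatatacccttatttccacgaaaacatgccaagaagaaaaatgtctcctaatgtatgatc

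The CRK11 window held 6 W-box cores, at 132, 69, 55, 49, 43 and 36 bases before the start. The CRK31 window held 4, at 252, 151, 110 and 80 bases. Neither the CRK30 nor the CRK12 window held one. The window of CRK13, the other neighbour of CRK12, held 0, and that of CRK41, which also fell in WT, held 4. Over the family, 31 of 41 windows had at least 1 W-box core, against 50.4% of the 27443 protein-coding genes of the annotation. The abscisic acid response element core, ACGTG or CACGT, stood in 13 of 41 windows, against 25.6% of all. The CRK31 window held 2 such cores and the CRK41 window held 6. Both motifs were searched on both strands, and their cores can overlap. A match is a string of letters and was not tested as a binding site.

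The tandem block spans chr4:12117491-12191704 in TAIR10.1, a length of 74.2 kb with 20 CRK genes, 9 of them on the plus strand, and 3 other genes. Such neighbours can share reads. In the deposited tables, the largest share of reads placed at more than 1 site reached 10.2% in CRK6, 6.08% in CRK8, 5.65% in CRK22 and 5.22% in CRK13, and was at most 0.435% in every other member. Gene models overlap on the same strand for CRK16 and CRK17 (1190 bases) and for CRK28 and CRK29 (470 bases), and on opposite strands for CRK25 and AT4G05190 (492 bases), CRK42 and AT5G40382 (130 bases), CRK19 and AT4G23271 (102 bases) and CRK10 and CRK11 (32 bases). CRK29 also shares 305 bases with the RNA gene AT4G03065 on its own strand. The sources used here do not give whether counting used strand, so values of these genes are uncertain to the extent of the overlap.

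On the RPKM scale, which is per length and so allows genes to be compared, the family covered a wide range. Over all 12 libraries, 16 members had a mean of at least 5 RPKM, 8 of them in the block, 7 members lay from 1 to 5, and 16 lay under 1. CRK1 and CRK33 were listed at 0 in every library. A count of 0 allows up to 3 reads per library, which is at most 0.025 RPKM for CRK1 and 0.027 RPKM for CRK33 and covers counting error only. CRK38, with 0 to 23 reads per library, was not tested either.

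The 5 members of highest mean level were CRK19, CRK18, CRK29, CRK3 and CRK40, at 17.6, 16.7, 15.3, 15.0 and 14.5 RPKM. CRK10 and CRK2 followed at 13.4 and 13.3, and neighbours in this order lie within the spread of their libraries. CRK18 stood at 14.9, 18.7 and 12.8 RPKM in WT control, 12.4, 13.4 and 16.3 in WT stress, 16.9, 19.4 and 20.1 in HIN1 control and 16.5, 15.2 and 24.3 in HIN1 stress. Its groups overlap, and it passed the test in no comparison. CRK3 was at 13.0, 11.2 and 13.2 RPKM in WT control, 16.5, 14.5 and 16.3 in WT stress, 13.9, 14.3 and 15.6 in HIN1 control and 15.8, 16.8 and 19.0 in HIN1 stress. Every WT stress library of CRK3 lay above every WT control library, but the log2 fold change of 0.27 did not pass (adjusted p = 0.0536, edgeR's quasi-likelihood test with p-values adjusted by the Benjamini-Hochberg method across the 22924 tested genes, as for every adjusted p here).

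**Figure D1:**
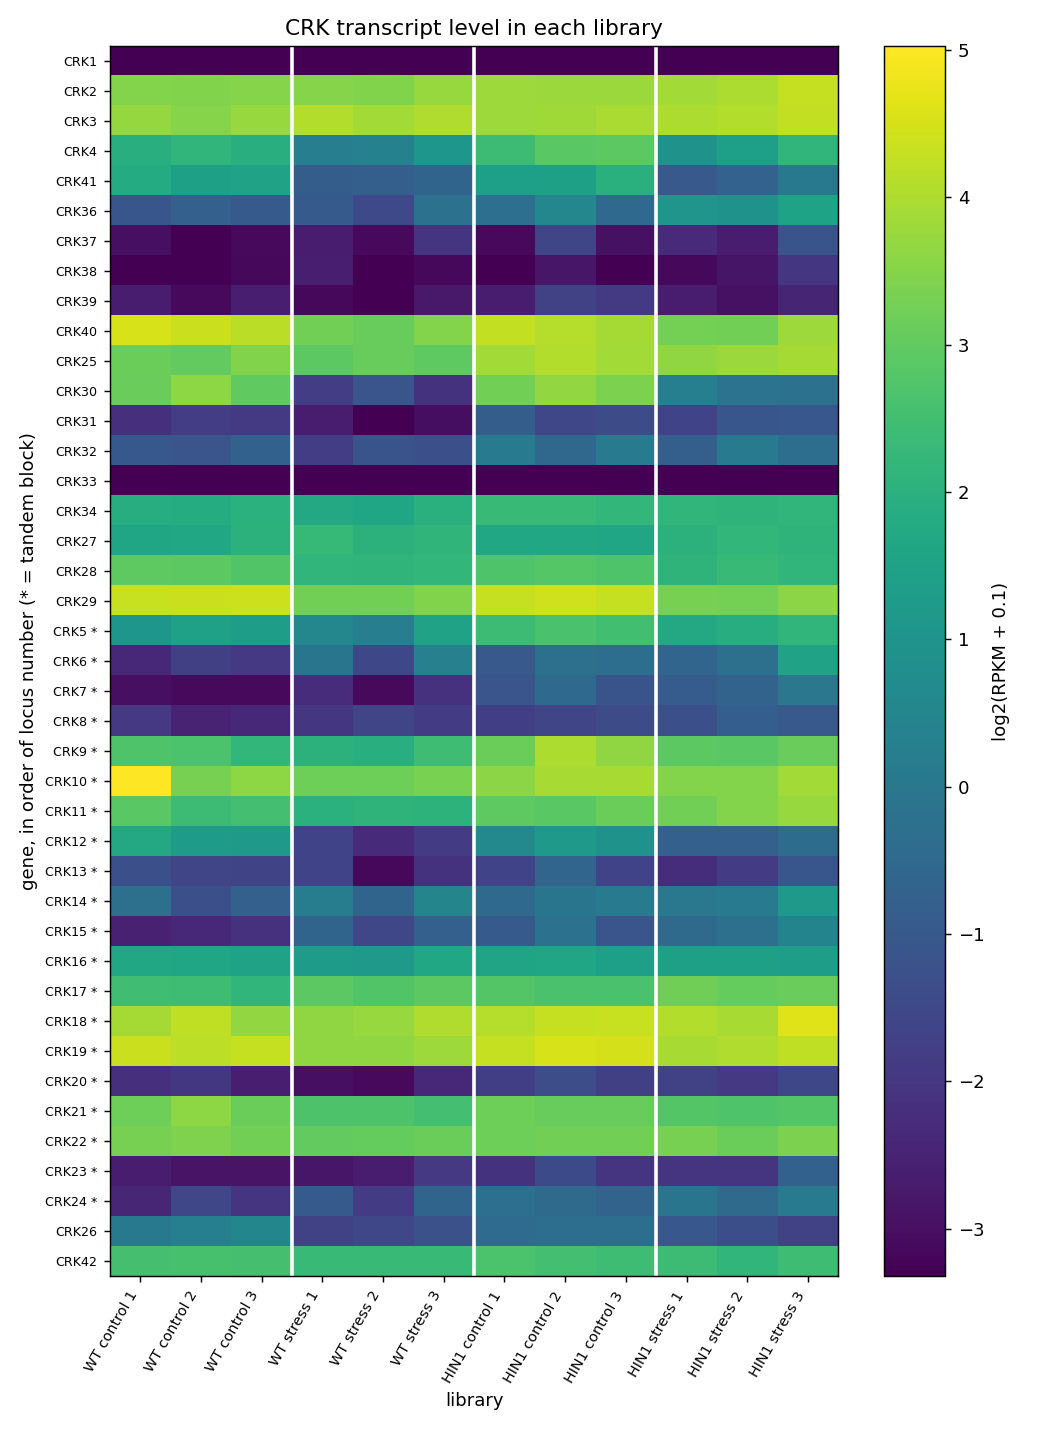
Heat map of the level of the CRK genes in the 12 libraries as log2(RPKM + 0.1), with 1 column per library in the order of the 4 groups and 1 row per gene. The block members and the others each range from genes above 10 RPKM in all groups to genes below 1 RPKM throughout.

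The first comparison asks what 96 h at low water potential did to the family in WT. More members fell than rose: 16 of the 38 tested were lower in WT stress than in WT control and 4 were higher. Over all genes tested, 16.7% were lower and 14.9% were higher (31.6% in either direction). The median log2 fold change of the members was -0.415, beside -0.004 for all genes. The summed RPKM of the family was 229, 207 and 197 in WT control and 145, 139 and 163 in WT stress. Every stress library thus lay below every control library in that sum. Outside the block, 10 of 18 tested members fell and 1 rose, and in the block 6 of 20 fell and 3 rose. The RPKM of the stress libraries lay wholly above the control libraries in 4 members and wholly below in 16, where 27.8% and 16.6% of all genes tested did so.

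CRK30 (AT4G11460) fell the most in this comparison. Its levels were 8.54, 12.2 and 7.78 RPKM in WT control and 0.187, 0.363 and 0.136 RPKM in WT stress. The groups are far apart, with a log2 fold change of -5.45 ± 0.30 (SE, adjusted p = 5.28e-07). CRK12 (AT4G23200), a block member, went from 3.21, 2.3 and 2.18 RPKM to 0.223, 0.102 and 0.18 RPKM, a log2 fold change of -3.99 ± 0.29 (adjusted p = 3.06e-06). These 2 genes kept low levels in all 3 stress libraries.

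CRK41 and CRK26, both outside the block, also dropped to low levels. CRK41 (AT4G00970) was at 3.42, 2.58 and 2.7 RPKM in WT control and at 0.454, 0.473 and 0.542 RPKM in WT stress (log2 fold change -2.64 ± 0.30, adjusted p = 7.51e-05). CRK26 (AT4G38830) was at 0.934, 1.12 and 1.32 RPKM and then at 0.215, 0.243 and 0.317 RPKM (-2.19 ± 0.24, adjusted p = 5.12e-05). The stress libraries of both genes lay below all control libraries.

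CRK28 and CRK29 are neighbours; CRK28 is known in Arabidopsis as an immune receptor kinase that promotes cell death when overproduced. CRK29 (AT4G21410) stood at 20.1, 20.5 and 21.1 RPKM in WT control and at 9.48, 9.48 and 10.9 RPKM in WT stress, a log2 fold change of -1.11 ± 0.09 (adjusted p = 8.6e-06). CRK28 (AT4G21400) stood at 7.59, 7.41 and 6.75 RPKM and then at 4.37, 4.3 and 4.54 RPKM, a log2 fold change of -0.79 ± 0.08 (adjusted p = 2.89e-05). Their libraries varied little within a group, and the groups did not overlap.

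CRK40 and CRK19, 2 of the 5 members of highest level, also fell. CRK19, whose overexpression is known to trigger cell death in Arabidopsis leaves, went from 20.5, 18.2 and 19.7 RPKM to 12.3, 12.4 and 13.9 RPKM (log2 fold change -0.67, adjusted p = 0.000563). CRK40 went from 22.7, 20.5 and 17.7 RPKM to 9.45, 8.38 and 11 RPKM (-1.15, adjusted p = 0.000465). In both genes all stress libraries were below all control libraries.

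The other members that fell were CRK21 (log2 fold change -0.76), CRK4 (-1.56), CRK42 (-0.35), CRK11 (-0.63), CRK31 (-2.56), CRK22 (-0.31), CRK25 (-0.30) and CRK10 (-1.03). CRK31 rests on few reads, 17, 24 and 22 in WT control and 8, 0 and 3 in WT stress, and its log2 fold change was -3.69 without WT stress library 1. CRK10 rests on 1 library: its RPKM was 32.5, 9.82 and 12.1 in WT control and 9.06, 9.08 and 10.1 in WT stress. Without WT control library 1 its log2 fold change was -0.26 (adjusted p = 0.266). The CRK10 call was lost in 13 of 19 alternative settings. The CRK22 call was lost without WT control library 1 or 2 or WT stress library 1 (adjusted p up to 0.0667), and the CRK25 call in 8 settings, among them those without WT control library 1 or 3 (adjusted p = 0.0816 and 0.14).

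Of the 4 members that rose in WT, CRK17 was the one with a level above 5 RPKM. It went from 5.39, 5.25 and 4.42 RPKM to 7.48, 6.61 and 7.52 RPKM, a log2 fold change of 0.45 ± 0.10 (adjusted p = 0.00491). CRK27 went from 2.99, 3.04 and 4.01 RPKM to 4.69, 4.0 and 4.27 RPKM, with groups that overlap (0.30 ± 0.10, adjusted p = 0.0419). CRK15 and CRK6 rose from near background. CRK15 was at 0.0717, 0.093 and 0.128 RPKM in WT control and 0.546, 0.243 and 0.486 in WT stress (2.05 ± 0.44, adjusted p = 0.00447). CRK6, which with CRK7 is known in Arabidopsis to act in responses to extracellular reactive oxygen species, was at 0.0961, 0.202 and 0.162 RPKM and then at 0.838, 0.251 and 1.15 RPKM (2.23 ± 0.71, adjusted p = 0.0317). Stress library 2 of both genes was far below the other two. The CRK6 call was lost on leaving out any WT library but stress library 2, at adjusted p from 0.0542 to 0.108. The CRK27 call was lost without WT control library 1 or 2, without WT stress library 1 or 3 and without any of 4 HIN1 libraries, at adjusted p from 0.0507 to 0.148.

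The same treatment in the 35S:HIN1 line was compared next. Of the 38 members, 11 were lower and 4 were higher in HIN1 stress than in HIN1 control, where 12.5% and 14.7% of all genes tested were lower and higher (27.1% in either direction). The median log2 fold change of the members was -0.145. The family sum was 223, 250 and 238 RPKM in HIN1 control and 183, 187 and 230 RPKM in HIN1 stress, so these groups overlap only through HIN1 stress library 3. In the block 4 members fell and 2 rose, and outside it 7 fell and 2 rose. The RPKM of the 2 groups did not overlap in 7 members that were higher under stress and 14 that were lower, where 23.3% and 20.2% of all genes were apart.

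Of these members, 10 were lower in both genotypes (9.06% of all genes were), CRK17 and CRK27 were higher in both (9.73% of all genes), and CRK11 was lower in WT and higher in HIN1. The 10 were CRK4, CRK12, CRK19, CRK21, CRK26, CRK28, CRK29, CRK30, CRK40 and CRK41. Another 5 were called lower and 2 called higher in WT alone, and 16 were called in neither genotype. A call in 1 genotype and not in the other does not show that the genotypes differ, which the interaction below tests.

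CRK30 again fell the most, from 9.51, 12.6 and 10.4 RPKM in HIN1 control to 1.11, 0.81 and 0.794 RPKM in HIN1 stress (log2 fold change -3.59 ± 0.26, adjusted p = 3.32e-06). CRK41 went from 2.51, 2.57 and 3.84 RPKM to 0.408, 0.523 and 0.946 RPKM (-2.25 ± 0.30, adjusted p = 0.000238). CRK12 went from 1.43, 2.16 and 1.82 RPKM to 0.494, 0.493 and 0.67 RPKM (-1.71 ± 0.26, adjusted p = 0.000593). All 3 genes had lower levels in every stress library than in any control library.

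The remaining falls among the 6 of lowest adjusted p were smaller. CRK29 went from 19.3, 21.3 and 19.7 RPKM to 9.77, 9.72 and 11.9 RPKM (-0.94 ± 0.09, adjusted p = 3.69e-05). CRK28 went from 6.56, 7.01 and 6.5 RPKM to 4.21, 5.0 and 4.46 RPKM (-0.56 ± 0.08, adjusted p = 0.000388), and CRK26 from 0.655, 0.706 and 0.717 RPKM to 0.383, 0.299 and 0.204 RPKM (-1.24 ± 0.24, adjusted p = 0.00257). As in WT, none of these groups overlapped. The other falls were those of CRK4, CRK19, CRK40, CRK21 and, called in 35S:HIN1 alone, CRK9 (log2 fold change -0.67). All 5 calls were lost on leaving out 1 or another HIN1 library, at adjusted p from 0.0506 to 0.164.

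Among the members that rose in the 35S:HIN1 line, CRK17 went from 6.82, 6.04 and 6.02 RPKM to 9.18, 8.14 and 8.64 RPKM (0.46 ± 0.10, adjusted p = 0.00502). CRK27 went from 3.01, 3.07 and 2.88 RPKM to 4.0, 4.54 and 4.25 RPKM (0.51 ± 0.10, adjusted p = 0.0037). Neither gene's groups overlapped here. CRK36 (AT4G04490), a kinase known in Arabidopsis to act in abscisic acid and osmotic stress responses, went from 0.734, 1.36 and 0.63 RPKM to 1.93, 1.83 and 2.8 RPKM (1.27 ± 0.36, adjusted p = 0.0225). CRK11 went from 7.65, 7.31 and 8.7 RPKM to 9.49, 11 and 13.1 RPKM (0.50 ± 0.15, adjusted p = 0.0264). Neither of the last 2 calls held without HIN1 stress library 3, at log2 fold changes of 1.03 for CRK36 and 0.35 for CRK11, or without HIN1 control library 1, at 1.14 and 0.47. The CRK36 call was also lost without HIN1 control library 3 and the CRK11 call without HIN1 control library 2.

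**Figure D2:**
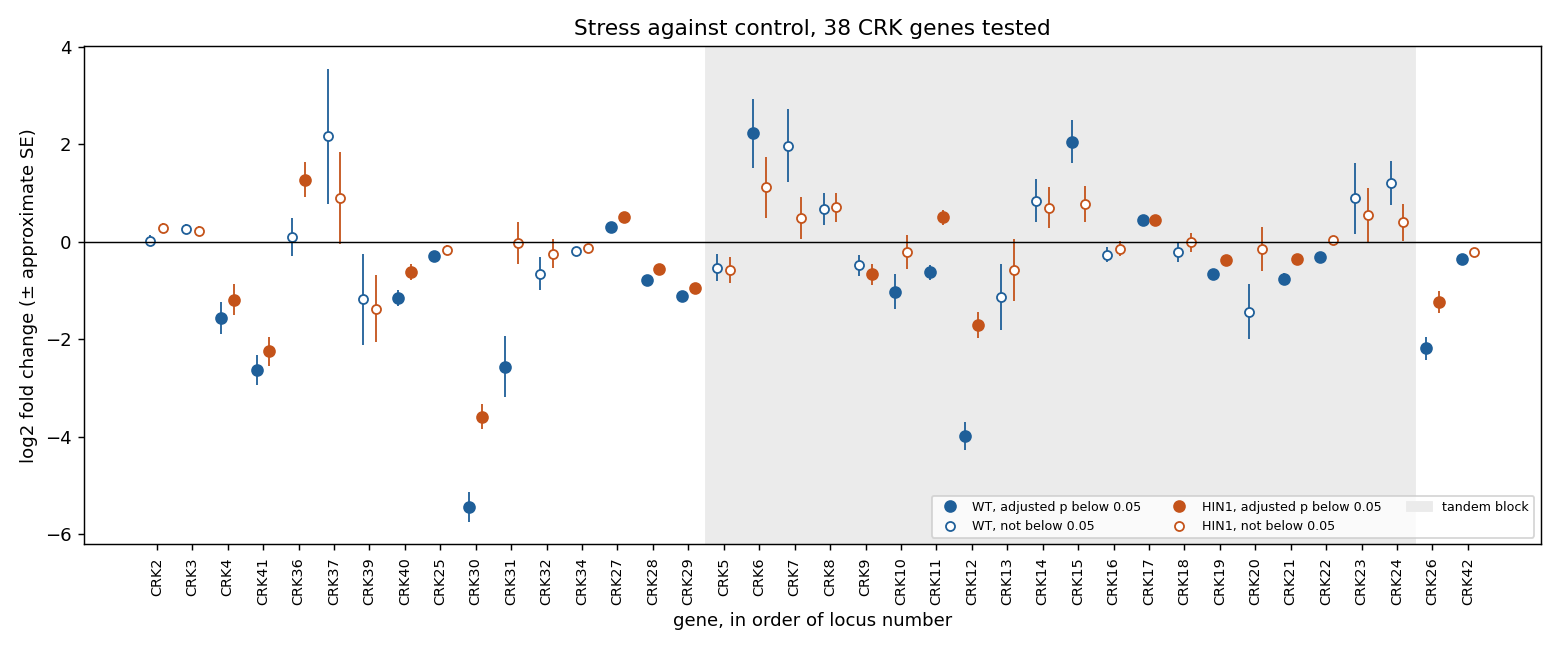
Log2 fold change of stress against control for the 38 tested members, with WT and 35S:HIN1 side by side and bars of 1 SE. CRK30, CRK41 and CRK12 stand lowest in both genotypes, and CRK11 is below 0 in WT and above 0 in 35S:HIN1.

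The next question is which members differ between 35S:HIN1 and WT without stress. At -0.25 MPa, 6 of 38 members were higher in 35S:HIN1 and 0 were lower by edgeR, while 2.19% of all genes tested were higher and 0.576% lower (2.76% in either direction). At an unadjusted p under 0.05, 22 members differed in either direction, beside 19% of all genes, and DESeq2 called 7 higher and 1 lower. The median log2 fold change of the members was 0.297. In the block 5 of 20 were higher, and outside it 1 of 18. All HIN1 libraries lay above all WT libraries in 19 members and below them in 3, where 13.3% and 5.79% of all genes did so. The authors' deposited table, made with DESeq2 per the submitters' processing notes, has 12 members higher and 1 lower at an adjusted p under 0.05. For the DESeq2 count and that of the authors the share over all genes was not taken. They cannot be set beside the edgeR shares.

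CRK7 (AT4G23150), which is known with CRK6 from responses to extracellular reactive oxygen species, was nearly silent in WT. Its reads were 4, 2 and 2 in WT control and 48, 82 and 46 in HIN1 control, or 0.0277, 0.0152 and 0.0151 RPKM against 0.357, 0.622 and 0.347 RPKM. The log2 fold change was 4.37 ± 0.64 (adjusted p = 0.00302), and it stays a low level gene in both genotypes. CRK25 (AT4G05200), the 1 called member outside the block, was at 8.74, 8.02 and 10.8 RPKM in WT control and 14.6, 16.8 and 14.5 in HIN1 control (0.68 ± 0.10, adjusted p = 0.00337). The groups of both genes are apart. These values and the stress response in WT share the WT control libraries.

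The others were CRK15, CRK9, CRK24 and CRK5, the last known in Arabidopsis from cell death and abscisic acid responses. CRK5 was at 2.0, 2.67 and 2.43 RPKM in WT control and 5.18, 6.02 and 5.51 in HIN1 control (1.17 ± 0.27, adjusted p = 0.0438). CRK9 was at 6.54, 6.2 and 4.56 RPKM against 8.85, 15.9 and 12.3 (1.03 ± 0.22, adjusted p = 0.0281). These levels do not overlap between genotypes.

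CRK15 was at 0.0717, 0.093 and 0.128 RPKM in WT control against 0.414, 0.773 and 0.363 in HIN1 control (2.33 ± 0.44, adjusted p = 0.0146). CRK24 was at 0.0847, 0.244 and 0.139 RPKM against 0.729, 0.639 and 0.532 (1.96 ± 0.44, adjusted p = 0.0366). Both are low level genes whose groups are apart. All 4 of these calls were lost without HIN1 control library 2, at adjusted p = 0.12 for CRK5, 0.106 for CRK9, 0.057 for CRK15 and 0.0912 for CRK24. In all, of 19 alternative settings, the call was lost in 8 for CRK5, 6 for CRK9, 3 for CRK15 and 10 for CRK24. The count of 6 became 2 without that library, 3 without WT control library 2 and 3 without HIN1 control library 3.

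At -0.7 MPa, the genotypes were compared in the same way. Here 10 of 38 members were higher in 35S:HIN1 than in WT and 0 were lower by edgeR, while 3.23% of all genes tested were higher and 0.196% lower (3.42% in either direction). At an unadjusted p under 0.05, 21 members differed, beside 10.6% of all genes, and DESeq2 called 16 in all. The authors' deposited table has 12 higher and 0 lower. Neither the DESeq2 count nor that of the authors has a share over all genes beside it. In the block 4 of 20 were called and outside it 6 of 18. The log2 fold change was above 0 in 37 of the 38 members, CRK27 being the exception at -0.02 (0.04 without WT stress library 1 and 0.03 without HIN1 stress library 1), against 10958 of the 22924 genes.

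The size of this shift depends in part on single libraries. The median log2 fold change of the members was 0.82, and it was 0.36 without HIN1 stress library 3 and 0.45 without WT stress library 2. Without HIN1 stress library 3, 31 members remained above 0. That library had the highest RPKM of its group in 29 of the 38 tested members, and WT stress library 3 in 26. The same share over all genes was not taken, so these 2 counts cannot be judged against the whole library. The median log2 fold change of all genes tested was -0.005, and -0.006 without HIN1 stress library 3. The members' libraries did not overlap in 20 genes that were higher in 35S:HIN1, where 10.1% of all genes were apart in that direction, and in 0 that were lower, where 6.06% were.

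CRK11 (AT4G23190), which is known to be induced by salicylic acid, had the lowest adjusted p of this comparison among the members. Its RPKM was 3.95, 4.21 and 4.13 in WT stress and 9.49, 11 and 13.1 in HIN1 stress (log2 fold change 1.46 ± 0.15, adjusted p = 0.000139). CRK25 was at 7.5, 8.3 and 7.61 RPKM against 12.5, 13.7 and 14.9 (0.81 ± 0.10, adjusted p = 0.000526). CRK36 was at 0.418, 0.255 and 0.766 RPKM against 1.93, 1.83 and 2.8 (2.19 ± 0.38, adjusted p = 0.0057). The groups are apart in all 3, and these calls held under each of the 19 alternative settings tried.

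CRK30 and CRK12, the members that fell the most in WT, were among those that stood higher in 35S:HIN1 at low water potential. CRK30 was at 0.187, 0.363 and 0.136 RPKM in WT stress against 1.11, 0.81 and 0.794 in HIN1 stress (1.98 ± 0.31, adjusted p = 0.0032). CRK12 was at 0.223, 0.102 and 0.18 RPKM against 0.494, 0.493 and 0.67 (1.71 ± 0.30, adjusted p = 0.00587). Both kept levels far below their control levels in either genotype. These values and the stress response in WT share the WT stress libraries.

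CRK31 and CRK32 are the next genes after CRK30 on chromosome 4 and were also higher. CRK31 had 8, 0 and 3 reads in WT stress and 30, 52 and 52 in HIN1 stress (3.56 ± 0.59, adjusted p = 0.0042), and its log2 fold change was 4.68 without WT stress library 1. CRK32 was at 0.185, 0.348 and 0.307 RPKM against 0.473, 0.974 and 0.714 (1.36 ± 0.33, adjusted p = 0.0431). All 3 neighbours lie close to or below 1 RPKM under stress.

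CRK7 stood at 0.108, 0.0152 and 0.127 RPKM in WT stress and at 0.442, 0.527 and 0.881 in HIN1 stress (2.88 ± 0.51, adjusted p = 0.00653). CRK2, known in Arabidopsis to act with the NADPH oxidase RBOHD and in salt tolerance, was at 11.4, 10.7 and 13.1 RPKM against 14.6, 15.9 and 19.5 (0.51 ± 0.11, adjusted p = 0.0218). CRK20 rests on low levels, 0.0275, 0.0155 and 0.0889 RPKM against 0.203, 0.16 and 0.253 (2.23 ± 0.54, adjusted p = 0.0453). Groups do not overlap in any of these genes, yet the CRK2, CRK20 and CRK32 calls were lost without HIN1 stress library 3, at adjusted p = 0.0519, 0.159 and 0.118, and without WT stress library 1, at 0.108, 0.211 and 0.189. The CRK20 and CRK32 calls were each lost in 12 of 19 settings, and the CRK20 log2 fold change was 3.20 without WT stress library 3. The CRK2 call was also lost without WT stress library 2, at adjusted p = 0.106. With all 4 libraries numbered 3 left out, the count of 10 became 6, and the calls of CRK7, CRK12, CRK30 and CRK31 were among those lost (adjusted p from 0.0664 to 0.158).

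CRK7 and CRK25 were called higher in 35S:HIN1 at both water potentials. The 4 members called by edgeR at -0.25 MPa and not at -0.7 MPa had log2 fold changes at -0.7 MPa of 1.12 for CRK5 (adjusted p = 0.0511), 0.85 for CRK9 (0.0675), 1.06 for CRK15 (0.244) and 1.15 for CRK24 (0.225). CRK5 passed at -0.7 MPa in 6 of the 19 alternative settings and CRK9 in 5, DESeq2 and leaving out WT stress library 3 among them for both. Conversely, at -0.25 MPa CRK36 had 1.02 (0.186), CRK2 had 0.25 (0.237) and CRK11 had 0.33 (0.263).

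**Figure D3:**
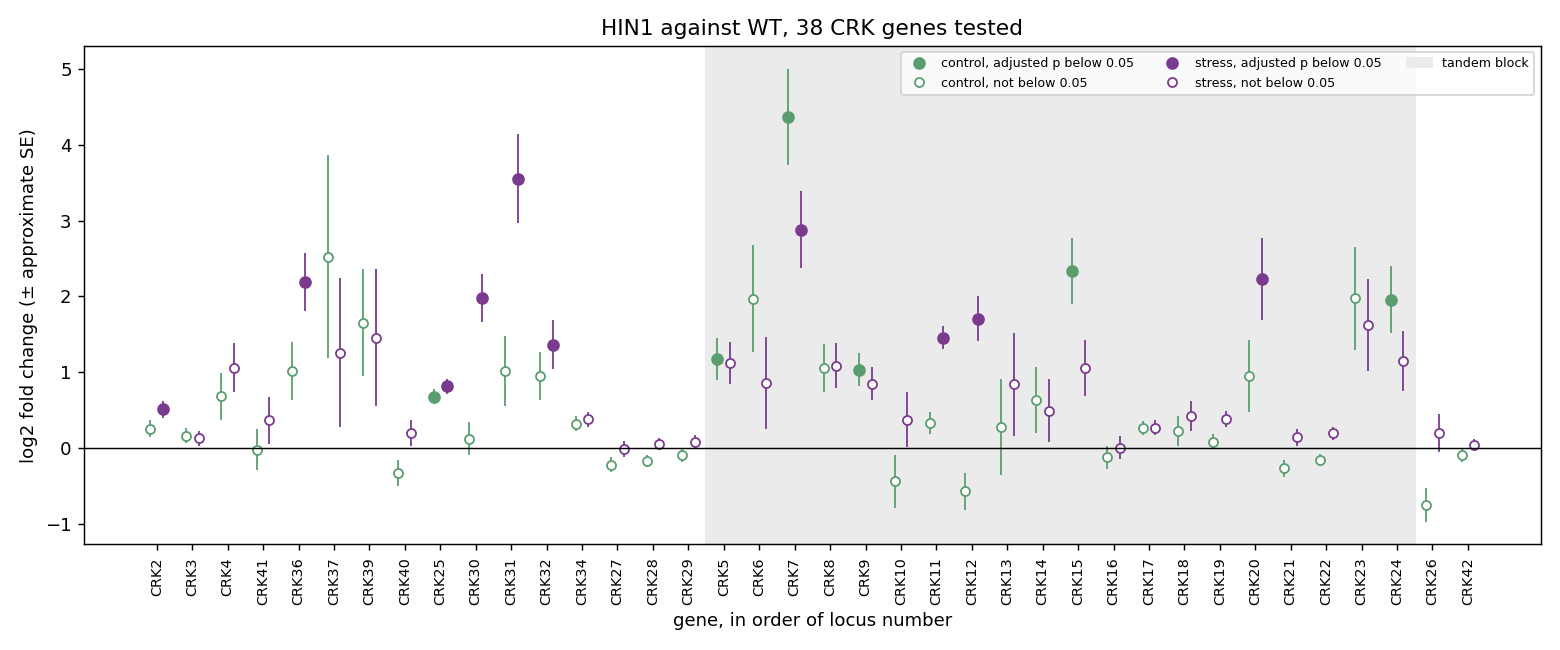
Log2 fold change of 35S:HIN1 against WT for the 38 tested members, at -0.25 MPa and at -0.7 MPa side by side with bars of 1 SE. At -0.7 MPa 37 of 38 points lie above 0, and at -0.25 MPa 26 do.

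Whether the stress response itself differs between genotypes was tested by the interaction. CRK12 was the 1 member that passed, while 0.157% of all genes did (0.153% with a higher and 0.00436% with a lower value in 35S:HIN1). At an unadjusted p under 0.05, 10 members differed, beside 9.17% of all genes, and DESeq2 called 3, CRK11, CRK12 and CRK30. The share over all genes was not taken for the DESeq2 count. The CRK12 fall was smaller in 35S:HIN1 by 2.28 ± 0.38 on the log2 scale (adjusted p = 0.0487). It lost the call in 13 of 18 alternative settings, with adjusted p up to 0.148 and a log2 difference between 2.03 and 2.54.

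CRK11 and CRK30 did not pass. The log2 difference of CRK11 was 1.13 ± 0.21 (adjusted p = 0.0764), from a fall in WT and a rise in 35S:HIN1. That of CRK30 was 1.86 ± 0.39 (adjusted p = 0.134). Both passed when WT control library 3 was left out.

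**Figure D4:**
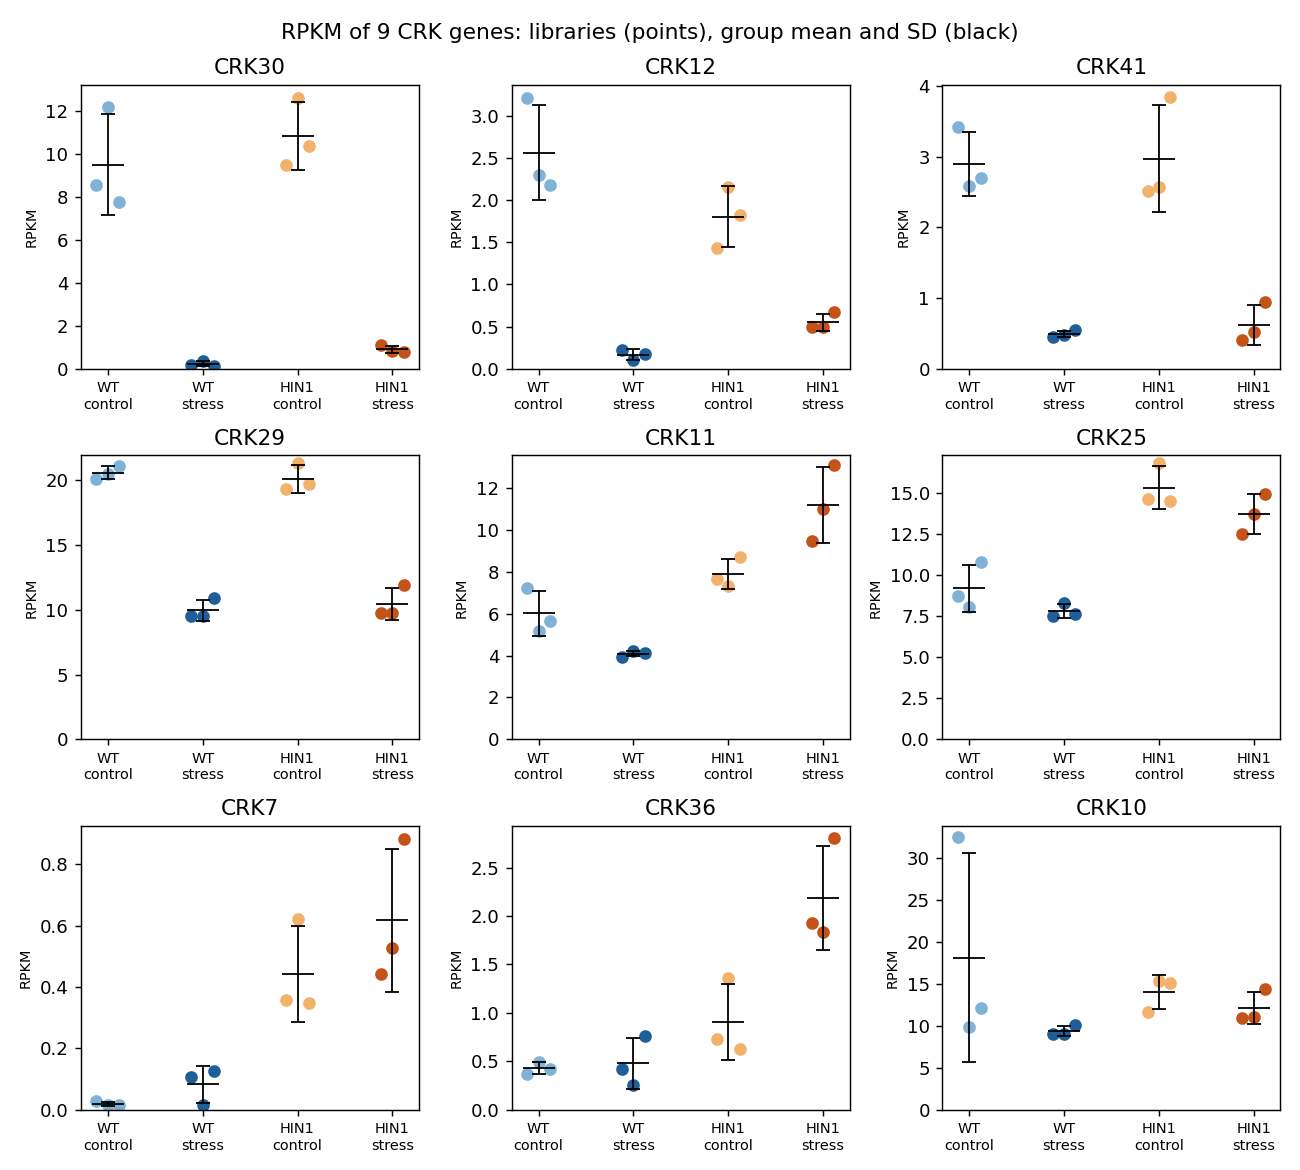
RPKM of selected members in each of the 12 libraries, as points by group with the group mean and SD in black. CRK30 and CRK12 are low in all stress libraries of both genotypes, and CRK11 is at 9.49 or more in each HIN1 stress library and at 4.21 or less in each WT stress library.

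Genes that work with CRKs or upstream and downstream of them were read from lists set by their known function. Each count below is over the whole list. Of all genes tested, 31.6% were called with stress in WT and 27.1% in 35S:HIN1. Between genotypes, 2.76% were called at -0.25 MPa and 3.42% at -0.7 MPa. At an unadjusted p under 0.05 the genotype shares were 19% and 10.6%. A further list of 11 genes held other DUF26 protein genes, together with CRK45 (AT4G11890) and AT4G00960. Whether each of the 11 encodes the DUF26 module was not checked. Of these 11, 1 was higher and 5 were lower in WT stress. AT3G22060 was at -2.35, the plasmodesmata protein gene PDLP5 at -0.80 and PDLP3 at -1.05 on the log2 scale, while PDLP1 was at 0.98, and these 4 calls held without WT control library 1. In 35S:HIN1, 1 rose and 6 fell with stress. Between genotypes, PDLP5 was higher in 35S:HIN1 at -0.7 MPa (0.36, adjusted p = 0.0242), a call lost without any one of 5 libraries, WT stress library 3 among them (0.103). At -0.25 MPa, 0 of the 11 passed by edgeR and 4 had an unadjusted p under 0.05.

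Of 12 receptor and oxidative burst genes, 4 were lower and 1 higher with stress in WT, beside 16.7% and 14.9% of all genes. Without WT control library 1 the counts were 2 and 1. The apoplastic peroxidase gene PRX33 fell by 1.26 on the log2 scale and by 1.33 without that library. The adaptor kinase gene SOBIR1 was at -1.22 and RBOHD, the main NADPH oxidase of immune responses, at -0.565. Without WT control library 1 they were at -0.50 (adjusted p = 0.16) and -0.33 (0.0759), and both calls were also lost without WT stress library 1 or 2. RBOHF, a relative of RBOHD, rose by 0.31 with and without it. In 35S:HIN1, 2 fell and 0 rose with stress, beside 12.5% and 14.7% of all genes. By edgeR, 0 of the 12 passed between genotypes at either water potential. At an unadjusted p under 0.05 there were 3 at -0.25 MPa and 1 at -0.7 MPa, beside 19% and 10.6% of all genes.

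Of 11 salicylic acid signaling genes, 3 were lower and 1 higher in WT stress (2 and 1 without WT control library 1), beside 16.7% and 14.9% of all genes. PR2, a defense output gene, rose by 4.03 on the log2 scale (3.29 without WT stress library 3), from a low level. Its RPKM was 0.134, 0.22 and 0.207 in WT control and 3.1, 0.745 and 5.72 in WT stress, a wide spread. The falls were those of NPR3 (-0.94), EDS5 (-0.40) and EDS1 (-0.30). Without WT control library 1, NPR3 was at -0.46 (adjusted p = 0.02) and EDS1 at -0.19 (0.143). The EDS5 call was lost without WT control library 3 (-0.22, adjusted p = 0.0891). In 35S:HIN1, 1 fell with stress and 0 rose, the one being ICS1, which makes the precursor of salicylic acid (-0.43, adjusted p = 0.00835). Between genotypes, 1 of the 11 was higher in 35S:HIN1 at -0.25 MPa and 2 were at -0.7 MPa. At -0.25 MPa this was ICS1 (log2 fold change 0.53, adjusted p = 0.0158), lost without HIN1 control library 1 (0.0577) or 2 (0.0607). At -0.7 MPa they were EDS5, the exporter of the precursor from plastids (0.67, adjusted p = 0.00966), and the regulator gene SARD1 (1.85, adjusted p = 0.0403). Both of the latter calls were lost without WT stress library 1 (0.0526 and 0.169) or 2 (0.0517 and 0.139), and that of SARD1 also without any HIN1 library.

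Of 10 WRKY transcription factor genes, 6 were lower and 1 higher in WT stress, beside 16.7% and 14.9% of all genes. Without WT control library 1 only WRKY22 was called, as lower. The summed RPKM of the 10 was 387, 101 and 154 in WT control, 78.4, 89.5 and 81.6 in WT stress, 105, 157 and 116 in HIN1 control and 89.5, 116 and 161 in HIN1 stress. WT control library 1 thus stood far above the others, as it did for CRK10. WRKY22 was at -2.57 on the log2 scale and at -1.76 without that library (adjusted p = 0.00128 in both). WRKY33 was at -2.055 and at -0.98 without it (0.0679), and WRKY70 at -1.79 and at -1.08 (0.0697). Both of these calls were also lost without WT stress library 1. In 35S:HIN1, 0 fell and 1 rose with stress, WRKY45, which was also higher than in WT at -0.7 MPa (0.98, adjusted p = 0.00616). The WRKY45 rise with stress was lost without HIN1 control library 1 or HIN1 stress library 2 (adjusted p = 0.0596 and 0.0598). Without the libraries numbered 3 both WRKY45 calls were lost. The log2 fold change was then 0.642 with stress (adjusted p = 0.0958) and 0.825 between genotypes (0.21).

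Markers of organs moved with some of these comparisons. The summed RPKM of 8 root hair genes ranged from 13.3 to 40.9 in WT control, 44.5 to 60.9 in WT stress, 36 to 45.9 in HIN1 control and 39.7 to 49.6 in HIN1 stress. Of the 8, 4 were called higher and 0 lower in WT stress, beside 14.9% and 16.7% of all genes. The counts were 3 and 0 without WT control library 1 and 8 and 0 without WT control library 3. Of 11 light-harvesting and Rubisco genes, 6 were lower in WT stress, 2 without WT control library 1 and 8 without WT control library 3. In 35S:HIN1, 0 were called with stress by edgeR, and 2 had an unadjusted p under 0.05, beside 38.7% of all genes. Between genotypes, 0 root hair, root or light-harvesting genes passed by edgeR at either water potential in the fit on all 12 libraries. At -0.25 MPa, edgeR without WT control library 3 called 7 of the 8 root hair and 4 of the 10 root genes higher. It called 6 of the 11 light-harvesting and Rubisco genes lower. Without the libraries numbered 3 these counts were 6, 4 and 3. DESeq2 on all libraries called 1, 2 and 8 in the same order and directions. For counts by DESeq2 or with libraries left out, here and in the lists above, the share over all genes was not taken. They cannot be set beside the edgeR shares. At an unadjusted p under 0.05 and -0.25 MPa, 10 of the 11 light-harvesting and Rubisco genes differed (median log2 fold change of the list -0.335), as did 4 of 8 root hair genes (median 0.75) and 3 of 10 root genes (0.197). At -0.7 MPa the same counts were 1, 0 and 0. Of all genes tested, 19% differed at -0.25 MPa and 10.6% at -0.7 MPa at that threshold. The part of organ proportions in the CRK values was not tested.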

How the data were processed

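Reads per gene (estimated counts, some fractional), RPKM and the fraction of reads placed at more than 1 site were deposited by the authors as 1 table per library. Beside them the authors deposited tables of their own comparisons, with log2 fold changes and p-values. Per the submitters' processing notes, CASAVA, bcl2fastq 1.8.4, Trimmomatic 0.35, Bowtie2 and DESeq2 were used on the TAIR10 genome. How reads were counted per gene, with which annotation release and whether by strand, is not given in the sources used here.

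Deposited reads were rounded to whole numbers and fitted with edgeR 4.0.16 (limma 3.58.1, R 4.3.3) by the quasi-likelihood method over all 12 libraries, with 1 coefficient per group, TMM scaling and filterByExpr at its minimum count of 10. P-values are two-sided and were adjusted by Benjamini-Hochberg over 22924 genes, and a gene was called at an adjusted p under 0.05. Standard errors are the log2 fold change divided by the root of the F statistic and are approximate. Levels are the deposited RPKM. The p-values measure the spread between libraries that the labels call independent experiments. The script was tested on simulated data. Depth was 57996104 to 68555138 gene-assigned reads per library. The limit given for a count of 0 covers counting error only.

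The named members were, per stress comparison, up to 6 called genes in each direction by adjusted p, per genotype comparison and for the interaction up to 8, and the 5 of highest mean RPKM. From each other list up to 3 called genes per comparison were planned, and for some lists more were named. CRK3 and CRK18 apart, uncalled members whose fold changes are given were chosen after their values were seen. The members and lists were chosen with earlier results of these data known. Alternatives were DESeq2 1.42.0, its size factors, no filter, a replicate block, reads at 1 site only, the compared groups alone and leaving out libraries. For the other lists they were added after seeing the data. Loci and promoters came from the RefSeq annotation of TAIR10.1.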

Additional observations from a re-analysis of the deposited data

Results flagged for a closer look

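The stress responses of 2 members are given here by genotype. CRK11 was lower in every WT stress library than in any WT control library and higher in every HIN1 stress library than in any HIN1 control library. Its response in 35S:HIN1 exceeded that in WT by 1.13 on the log2 scale, which did not pass the test (edgeR adjusted p = 0.0764). The CRK12 response differed by 2.28 on the log2 scale (edgeR adjusted p = 0.0487), as a smaller fall in 35S:HIN1, and this call was lost in 13 of 18 alternative settings.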

How the results depend on the processing

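The counts of called members were 20 with stress in WT, 15 with stress in 35S:HIN1, 6 and 10 between genotypes at -0.25 and -0.7 MPa, and 1 for the interaction. Leaving out libraries gave 15 to 22, 10 to 16, 2 to 7, 6 to 12 and 0 to 3 in the same order. Without the 4 libraries numbered 3 the counts were 21, 12, 5, 6 and 0. DESeq2 called 16 between genotypes at -0.7 MPa and 3 for the interaction, and the cause was not tested. The share of all genes called was not taken for any alternative setting. A change in these counts is therefore not particular to the family. Deviations of same-numbered libraries from their group means had 18 correlations from -0.11 to 0.195, 5 above 0.1, 3 of these among the libraries numbered 3, and 6 of 12 libraries correlated best with their own number. The labels carry the same date for all 12 libraries and do not say that a number marks a shared day. Since also not every pair was above 0.1, the numbers were not read as pairs. Whether the libraries numbered 3 share a batch was not tested. With the replicate number as a block the counts were 20, 16, 4, 9 and 0; the block ended the CRK12 interaction call (adjusted p = 0.107) and made CRK5 a call at -0.7 MPa (1.16, adjusted p = 0.0307). Among the named members' fold changes and those of the called genes of the 4 partner lists, the 1 that changed sign was CRK27 between genotypes at -0.7 MPa, at 0.038 without WT stress library 1 and 0.031 without HIN1 stress library 1, in a range from -0.069 to 0.038 over the libraries left out. Under every setting tried, 14 of the 20, 8 of the 15, 2 of the 6, 3 of the 10 and 0 of the 1 calls were kept. Low levels limit CRK7, CRK20, CRK31 and CRK37 to CRK39, whose groups include libraries with few or no reads.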
